A study of Homo sapiens with 9 samples.

Results

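The RNA of 10 amino acid transporter genes was examined in the cell line MDA-MB-231, which was established from a breast cancer without hormone receptors or amplified HER2 (triple-negative). The genes were taken by name from the deposited count of every library: SLC7A11, SLC3A2, SLC7A5, SLC7A1, SLC1A4, SLC1A5, SLC38A1, SLC38A2, SLC43A1 and SLC6A9, which are 10 of the 58735 genes listed. There were 9 libraries in 3 groups of 3: cells given the solvent DMSO (vehicle), cells that had survived raised concentrations of erastin (erastin-R), and cells that had survived raised concentrations of RSL3 (RSL3-R). All groups came from the same line and differed, as far as the labels say, only in the agent. The doses and the schedule of the sequenced cells, which the study shows in a supplementary figure, were not used here, and each treated group holds survivors, so that a change in the cells and a selection among them cannot be told apart. The labels also do not say whether the libraries of a group came from separate cultures, and p values then measure only the spread between these libraries, which may be technical.

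System xc- is the exchanger that brings cystine into the cell and releases glutamate; it is built from a light chain, SLC7A11, which carries out the transport, and a heavy chain, SLC3A2, which takes the light chain to the plasma membrane. Imported cystine is reduced to cysteine, the precursor of glutathione, and glutathione is the reducing agent that glutathione peroxidase GPX4 uses to detoxify lipid peroxides. Erastin inhibits system xc- and RSL3 inhibits GPX4, and both lead to ferroptosis, an iron-dependent cell death by lipid peroxidation. The other genes encode further carriers: SLC7A5 (LAT1) exchanges large neutral amino acids and also needs SLC3A2, SLC43A1 (LAT3) carries large neutral amino acids without a heavy chain, SLC1A4 (ASCT1) and SLC1A5 (ASCT2) exchange small neutral amino acids and, for SLC1A5, glutamine. SLC38A1 (SNAT1) and SLC38A2 (SNAT2) take up glutamine, alanine and related amino acids together with sodium, SLC7A1 (CAT1) carries arginine and lysine and is thus a cationic rather than a neutral carrier, and SLC6A9 (GLYT1) takes up glycine, another precursor of glutathione.

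All 10 genes passed the filter on low counts and were among the 16188 genes tested. Levels are given as CPM, the count scaled to a common library size, and differences as log2 fold changes from edgeR's quasi-likelihood test, with their standard error (SE) and with p values adjusted by Benjamini-Hochberg over all genes tested. A gene was called when its adjusted p was under 0.05 and its log2 fold change was at least 1 in size. The libraries held 15405102 to 17273464 counts. The common dispersion that edgeR estimated over all genes, which leaves out counting error, corresponds to a coefficient of variation of 8.56% between replicates. Erastin-R replicate 1 stood apart, with a root mean square log2 difference of 0.450 to 0.457 from its replicates against 0.331 to 0.354 for the other replicate pairs, so that the values that move with it are also given without it. The 5 genes taken as markers of the line, VIM, CD44, AXL, CAV1 and KRT18, summed to 3137 to 3466 CPM over the libraries, while ESR1 and PGR, the hormone receptors that a triple-negative line lacks, had at most 12 counts in any library. ERBB2 (HER2) had 927 to 1598 counts, EPCAM 15 to 48 and CDH1 6 to 59, and CDH1 was called higher in RSL3-R cells. CAV1 and KRT18 were called lower in the erastin-R group, with log2 fold changes of -1.14 and -1.12. Of 3 markers of blood and vessel cells, CD3E had 0 to 4 counts, PTPRC 3 to 24 and PECAM1 20 to 222, and their sum was 10.1 to 11.2 CPM in vehicle-treated, 1.46 to 2.80 CPM in erastin-R and 13.1 to 15.3 CPM in RSL3-R cells. CD3E was at 0 in every erastin-R library, PECAM1 was called lower in erastin-R cells and PTPRC higher in RSL3-R cells. The part of these shifts in the results below was not tested.

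The sequences around the start sites of these genes were read from RefSeq (GRCh38.p14), which held 16 windows of 300 bases for 9 of the 10 genes and none for SLC7A11, whose promoter was therefore not analysed here. A window runs from 250 bases before to 50 bases after a start. Stretches with a match are shown because 2 short motifs are known from amino acid transporters: the element bound by ATF4 when amino acids are short (TGATGNAA) and the antioxidant response element (TGACNNNGC). Both motifs were chosen after the windows of the transporters had been looked at, and were searched on both strands. The shares of windows given here are thus a description and no test of enrichment. TGATGNAA stood in 3.62% of the 35116 windows of all genes and in 5 of the 16 windows of the transporters, each of a different gene. The matches are in capitals, with 10 bases on either side where the window allows, written along the strand of the gene:
SLC1A4: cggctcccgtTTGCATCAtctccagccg
SLC3A2: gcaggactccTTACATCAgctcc
SLC38A1: cagacccgaaTGATGAAAagggatcagc
SLC7A1: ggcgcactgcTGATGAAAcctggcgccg
SLC1A5: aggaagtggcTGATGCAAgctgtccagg

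The stretch of SLC1A4 lies at chr2:64989382-64989409 (plus strand) and that of SLC3A2 at chr11:62881726-62881748 (plus strand), with the motif on the opposite strand in both. The stretch of SLC38A1 lies at chr12:46266503-46266530, that of SLC7A1 at chr13:29595664-29595691 and that of SLC1A5 at chr19:46784894-46784921, all on the minus strand with the motif on the strand of the gene. Counted from the start site of its window, the first base of the match lay at -7 in SLC1A4, 38 in SLC3A2, -4 in SLC38A1, 8 in SLC7A1 and -97 in SLC1A5. The antioxidant motif was more common, in 13.3% of all windows, and stood in 4 of the 16 windows of the transporters, again each of a different gene:
SLC3A2: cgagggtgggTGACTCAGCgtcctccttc
SLC7A1: tgcccggcggTGACGCGGCcgagcgggcc
SLC7A5: gcggggttccTGACGCAGCtgcgggcggc
SLC1A5: cctggatcttGCGAGGTCAgctcccgctc

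These stretches lie at chr11:62881652-62881680 for SLC3A2 (plus strand), chr13:29595755-29595783 for SLC7A1, chr16:87869491-87869519 for SLC7A5 and chr19:46787386-46787414 for SLC1A5 (minus strand), the last with the motif on the opposite strand. No match of one motif overlapped a match of the other. A match describes these letters alone, and binding was not measured. The start sites of the matched windows of SLC1A4, SLC3A2, SLC38A1 and SLC1A5 lie inside the gene spans given below. Whether these cells use the RefSeq starts of any of the windows was not measured.

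SLC7A11, the cystine carrier, had the largest log2 fold change of the 10 genes in both treated groups. The gene (ENSG00000151012) lies on chromosome 4 of GRCh38 from 138164097 to 138242349 on the minus strand. Its level was 30.1, 30.2 and 31.3 CPM in the vehicle libraries, 213, 213 and 195 CPM in the erastin-R libraries, and 178, 178 and 172 CPM in the RSL3-R libraries. Each treated library thus lay far above the vehicle libraries, and the erastin-R libraries all lay above the RSL3-R libraries. SLC7A11 was 6.78-fold above vehicle in erastin-R cells (log2 fold change 2.76, SE 0.06, adjusted p = 6.24e-12). In RSL3-R cells it was 5.76-fold higher (log2 fold change 2.53, SE 0.06, adjusted p = 9.93e-12). Among the genes tested, this was rank 35 from the top of the log2 fold changes in erastin-R cells and rank 68 in RSL3-R cells. These are RNA levels of whole cultures, in which fewer cells carrying an RNA and less of it per cell cannot be told apart. Tested directly, RSL3-R cells had less SLC7A11 than erastin-R cells, with a log2 fold change of -0.23 (95% confidence interval -0.36 to -0.11, adjusted p = 0.00371). Over 16 alternative fits this adjusted p ranged from 5.62e-04 to 0.0526, and it was not under 0.05 without RSL3-R replicate 3.

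Part of the SLC7A11 exons is shared with SLC7A11-AS1 (ENSG00000250033), a gene of the opposite strand, which overlaps 865 bases or 8.97% of them. SLC7A11-AS1 had 6, 8 and 5 counts in the vehicle libraries, 111, 75 and 55 in the erastin-R libraries, and 26, 26 and 44 in the RSL3-R libraries. The groups did not overlap, and the order of the groups was that of SLC7A11 itself. SLC7A11-AS1 was called higher in erastin-R cells (log2 fold change 3.64, SE 0.36, adjusted p = 1.49e-06) and in RSL3-R cells (log2 fold change 2.32, SE 0.40, adjusted p = 2.69e-04), and called lower in RSL3-R than in erastin-R cells (log2 fold change -1.32, SE 0.27, adjusted p = 0.00126). The study names its library kit without describing it as strand-specific, and whether the counting used strand is not given in the sources used here. Without strand the reads of the shared bases cannot be assigned to one of the genes. The calls of SLC7A11-AS1 then cannot be told apart from reads of SLC7A11. SLC7A11 itself had 489 to 507 counts in vehicle-treated and 2761 to 3580 counts in treated libraries, so the counts of SLC7A11-AS1 were small beside them.

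SLC3A2, the heavy chain, rose less than its cystine-carrying partner. The gene (ENSG00000168003; chromosome 11, 62856102 to 62888875, plus strand) had 160.1, 156 and 138 CPM in the vehicle libraries, 222, 308 and 303 CPM in the erastin-R libraries, and 296, 301 and 296 CPM in the RSL3-R libraries. All treated libraries lay above the vehicle libraries, and erastin-R replicate 1 was the lowest of them. SLC3A2 was 1.84-fold higher in erastin-R cells (log2 fold change 0.88, SE 0.10, adjusted p = 8.36e-06). It was 1.97-fold higher in RSL3-R cells (log2 fold change 0.98, SE 0.10, adjusted p = 3.52e-06). Both values passed the p threshold and stayed under the threshold on size. Without erastin-R replicate 1 the log2 fold change in erastin-R cells was 1.01 and SLC3A2 was called, and in RSL3-R cells 4 of the 16 alternatives also brought it past the threshold on size (0.91 to 1.02 over all of them). Between RSL3-R and erastin-R cells the log2 difference was 0.10 with a 95% confidence interval of -0.12 to 0.32 (adjusted p = 0.429), and no difference was detectable. Without erastin-R replicate 1 this log2 difference was -0.04.

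**Figure D1:**
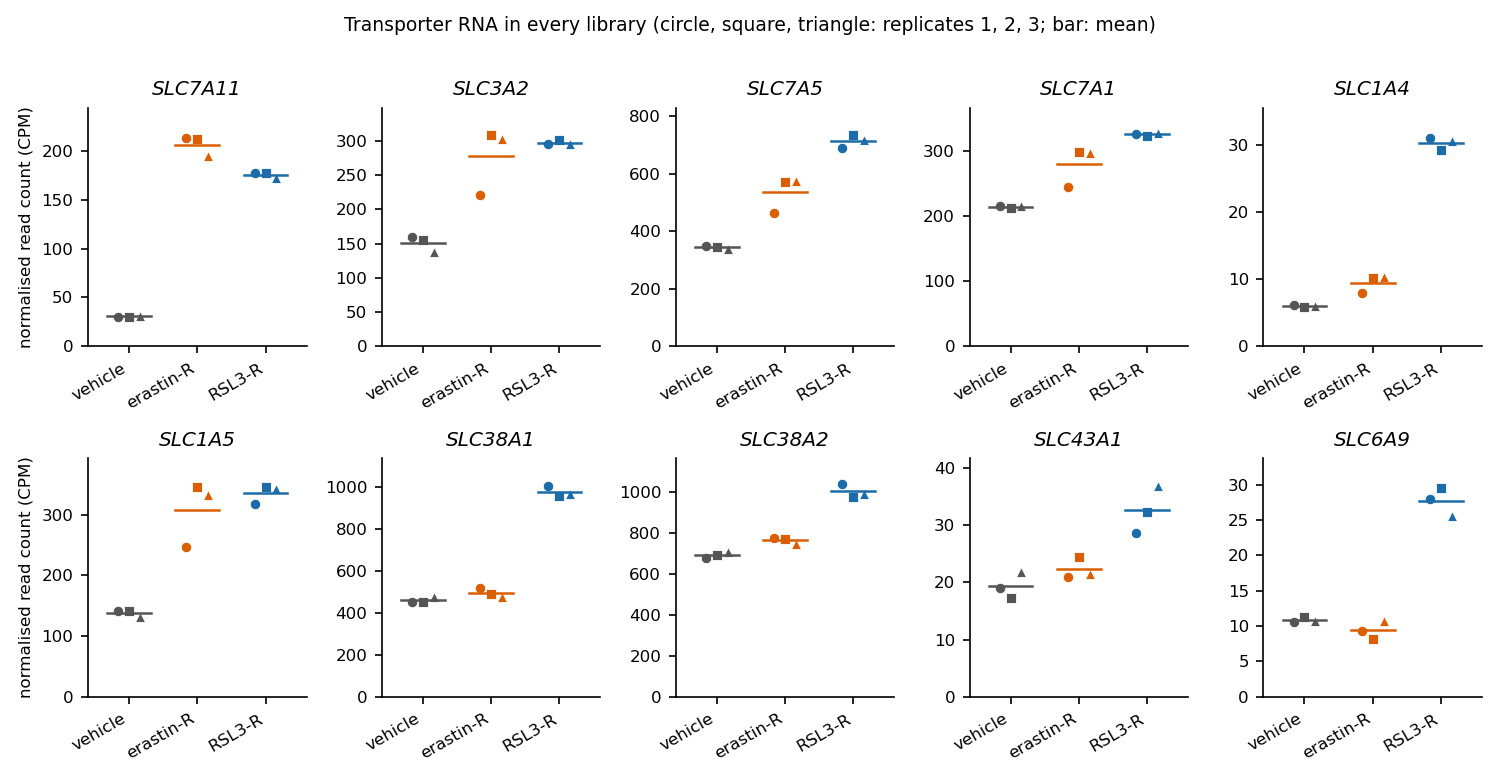
Normalised read count (CPM, linear axes from 0) of the 10 transporter genes in every library. Circles, squares and triangles are replicates 1, 2 and 3, and bars are group means. The mean of SLC7A11 is 30.5 CPM in vehicle-treated, 207 CPM in erastin-R and 176 CPM in RSL3-R libraries, while SLC1A4, SLC38A1 and SLC6A9 are raised mainly in the RSL3-R libraries. Erastin-R replicate 1 lies below its replicates for SLC3A2, SLC7A5, SLC7A1, SLC1A4 and SLC1A5, and narrowly for SLC43A1.

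SLC7A5, the large neutral amino acid exchanger that shares the heavy chain, rose in both groups and more in RSL3-R cells. The gene (ENSG00000103257; chromosome 16, 87830023 to 87869488, minus strand) had 350.4, 347 and 339.8 CPM in the vehicle libraries, 463, 570.2 and 577 CPM in the erastin-R libraries, and 692, 734 and 717 CPM in the RSL3-R libraries. The 3 groups did not overlap, with vehicle lowest and RSL3-R highest. The log2 fold change of SLC7A5 was 0.63 in erastin-R cells (SE 0.08, adjusted p = 8.70e-06) and 1.05 in RSL3-R cells (SE 0.08, adjusted p = 8.50e-08). RSL3-R cells were above erastin-R cells by 0.41 on the log2 scale (SE 0.07, adjusted p = 4.30e-04). Of all 50-base words in the SLC7A5 exons 3.92% also occur in other genes, mainly the pseudogenes SMG1P3, with at most 130 counts in a library, and SLC7A5P2, with 0. SLC43A1 (ENSG00000149150; chromosome 11, 57484534 to 57515786, minus strand), the carrier of the same kind of amino acids that works without SLC3A2, was 17.4 to 21.8 CPM in vehicle-treated, 20.9 to 24.5 CPM in erastin-R and 28.6 to 36.9 CPM in RSL3-R cells. The first 2 groups overlapped and the RSL3-R libraries lay above both. SLC43A1 rose in RSL3-R cells (log2 fold change 0.75, SE 0.12, adjusted p = 1.06e-04), and its log2 fold change in erastin-R cells was 0.20 (95% confidence interval -0.05 to 0.45, adjusted p = 0.168).

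Of the exchangers of small neutral amino acids, SLC1A5 rose in both groups, whereas SLC1A4 rose far more in RSL3-R cells. SLC1A5 (ENSG00000105281; chromosome 19, 46774883 to 46788594, minus strand), a main route of glutamine into cancer cells, had 142, 140.4 and 131 CPM in the vehicle libraries, 247, 345 and 332 CPM in the erastin-R libraries, and 318, 346 and 342 CPM in the RSL3-R libraries. All treated libraries were above the vehicle libraries, and the treated groups overlapped. SLC1A5 was 2.24-fold higher in erastin-R cells (log2 fold change 1.16, SE 0.10, adjusted p = 4.85e-07) and 2.44-fold higher in RSL3-R cells (log2 fold change 1.28, SE 0.10, adjusted p = 2.08e-07). The log2 difference between the treated groups was 0.12 (95% confidence interval -0.09 to 0.33, adjusted p = 0.328), and it was -0.02 without erastin-R replicate 1. The unnamed antisense gene AC008622.2 overlaps 23.4% of the SLC1A5 exons, but had at most 3 counts in any library.

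SLC1A4 (ENSG00000115902; chromosome 2, 64988477 to 65023865, plus strand), the other exchanger of this family, had 6.14, 5.81 and 6.05 CPM in the vehicle libraries, 7.92, 10.1 and 10.3 CPM in the erastin-R libraries, and 31.0, 29.3 and 30.6 CPM in the RSL3-R libraries. The groups did not overlap, and the RSL3-R libraries stood well apart from the rest. SLC1A4 was 5.04-fold higher in RSL3-R than in vehicle-treated cells (log2 fold change 2.33, SE 0.12, adjusted p = 2.29e-09). In erastin-R cells the log2 fold change was 0.66 (SE 0.13, adjusted p = 5.47e-04), which passed the p threshold but not the threshold on size. The direct comparison gave a log2 fold change of 1.68 in favour of RSL3-R cells (SE 0.11, adjusted p = 6.52e-08).

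The sodium-coupled carriers SLC38A1 and SLC38A2 were already abundant in vehicle-treated cells and moved mainly in RSL3-R cells. SLC38A1 (ENSG00000111371; chromosome 12, 46183063 to 46270017, minus strand) had 452, 453 and 476 CPM in the vehicle libraries, 519, 493 and 478 CPM in the erastin-R libraries, and 1007, 961 and 969.8 CPM in the RSL3-R libraries. The RSL3-R libraries lay far above the others, while the vehicle and erastin-R libraries were separated by only a narrow gap. SLC38A1 was 2.13-fold higher in RSL3-R than in vehicle-treated cells (log2 fold change 1.09, SE 0.05, adjusted p = 2.30e-09). Its log2 fold change in erastin-R cells was 0.11 (95% confidence interval -0.01 to 0.23, adjusted p = 0.105). RSL3-R cells exceeded erastin-R cells by 0.98 on the log2 scale (adjusted p = 1.36e-08), just under the threshold on size, which 4 of the 16 alternatives passed. SLC38A2 (ENSG00000134294; chromosome 12, 46358189 to 46372867, minus strand), the neighbouring gene whose product adapts to amino acid shortage, was 675 to 706 CPM in vehicle-treated, 742 to 773 CPM in erastin-R and 976 to 1038 CPM in RSL3-R cells. The groups did not overlap. SLC38A2 changed by 0.53 on the log2 scale in RSL3-R cells (SE 0.05, adjusted p = 1.56e-06) and 0.14 in erastin-R cells (SE 0.05, adjusted p = 0.0336). The last adjusted p ranged from 0.00325 to 0.127 over the 16 alternatives and was under 0.05 in 8 of them.

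SLC6A9, the glycine carrier, was the member with the lowest log2 fold change in erastin-R cells and the third highest in RSL3-R cells. The gene (ENSG00000196517; chromosome 1, 43991500 to 44031467, minus strand) had 10.6, 11.2 and 10.7 CPM in the vehicle libraries, 9.29, 8.21 and 10.8 CPM in the erastin-R libraries, and 27.9, 29.6 and 25.5 CPM in the RSL3-R libraries. Vehicle and erastin-R libraries overlapped, and the RSL3-R libraries lay above both. SLC6A9 was 2.56-fold higher in RSL3-R than in vehicle-treated cells (log2 fold change 1.35, SE 0.11, adjusted p = 3.35e-07). In erastin-R cells the log2 fold change was -0.20 (95% confidence interval -0.46 to 0.06, adjusted p = 0.178). Directly compared, RSL3-R cells were 2.93-fold above erastin-R cells (log2 fold change 1.55, SE 0.11, adjusted p = 1.79e-07). CCDC24, on the opposite strand, shares 7.83% of the SLC6A9 exons and had 85 to 146 counts per library, against 129 to 476 counts for SLC6A9.

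SLC7A1 (ENSG00000139514; chromosome 13, 29509410 to 29595688, minus strand), the carrier of arginine and lysine, changed less than the exchangers. It was 212 to 216 CPM in vehicle-treated, 245 to 298 CPM in erastin-R and 323 to 327 CPM in RSL3-R cells. The 3 groups did not overlap, and the gap between the treated groups was smaller than the spread within erastin-R cells. Relative to vehicle SLC7A1 gained 0.39 on the log2 scale in erastin-R cells (SE 0.07, adjusted p = 3.89e-04) and 0.60 in RSL3-R cells (SE 0.07, adjusted p = 8.93e-06). The direct difference was 0.22 (SE 0.07, adjusted p = 0.0188).

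Counted together, 2 of the 10 genes (SLC7A11 and SLC1A5) were called higher in erastin-R cells and 0 lower, where 6.70% of all genes tested were called higher and 6.66% lower. Without the threshold on size, 7 of the 10 were higher and 0 lower, against 27.1% and 26.8% of all genes. The median log2 fold change was 0.51 over the 10 genes and -0.0042 over all genes tested. Leaving out erastin-R replicate 1 raised the number called from 2 to 3, by SLC3A2.

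In RSL3-R cells 6 of the 10 genes (SLC7A11, SLC1A4, SLC6A9, SLC1A5, SLC38A1 and SLC7A5) were called higher and 0 lower, against 6.02% and 4.08% of all genes tested. By adjusted p alone 10 of 10 were higher, against 23.8% of all genes that were higher and 24.9% that were lower. The median log2 fold change was 1.07 over the 10 genes and 0.0052 over all genes. This comparison and the one of erastin-R cells use the same vehicle libraries and are therefore not independent of each other. In the direct comparison of RSL3-R with erastin-R cells, 2 genes (SLC1A4 and SLC6A9) were called higher in RSL3-R cells and 0 lower, with 6.86% and 3.48% of all genes. By adjusted p alone 7 were higher and 1, SLC7A11, was lower, with 22.3% and 26.9% of all genes, and the median was 0.40 over the 10 genes and -0.024 over all genes. Leaving out erastin-R replicate 1 raised the number called from 2 to 3, by SLC38A1.

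**Figure D2:**
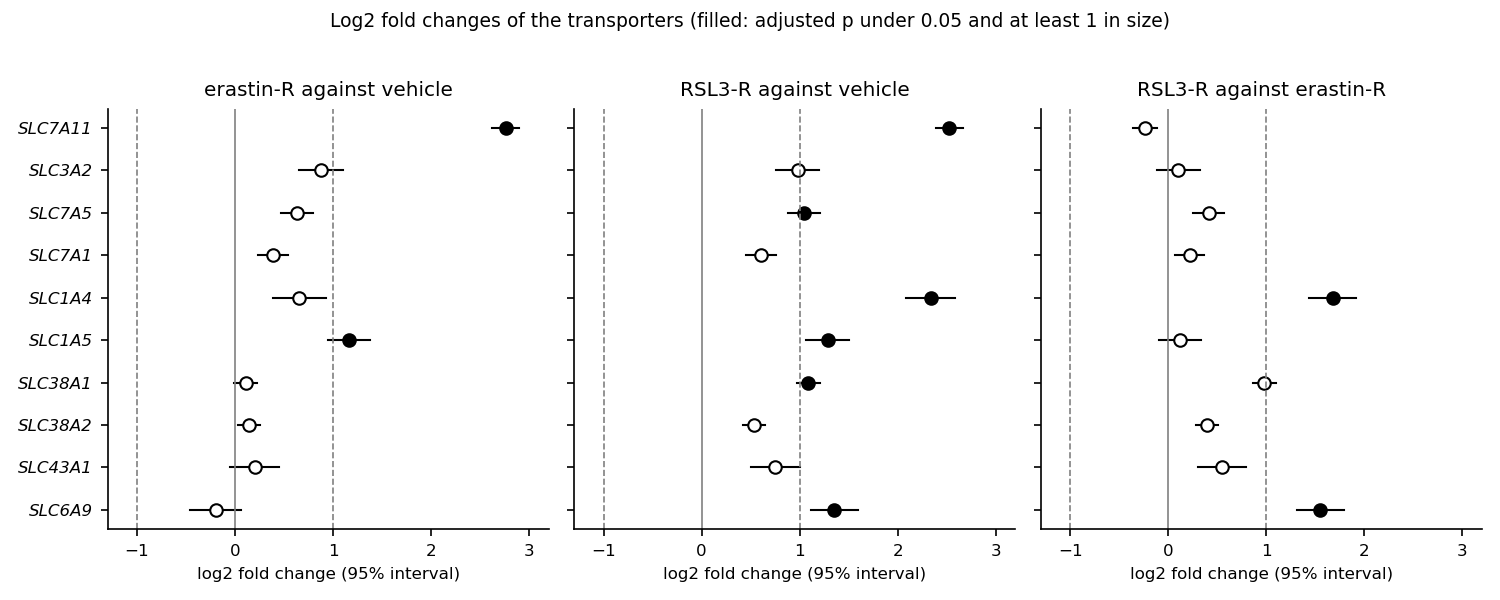
Log2 fold change (points) and 95% confidence interval (lines) of the 10 transporter genes in the 3 comparisons, from edgeR with 3 libraries per group. Filled points are called genes and dashed lines mark a log2 fold change of -1 and 1. There are 2 filled points for erastin-R cells, 6 for RSL3-R cells and 2 in the direct comparison, where the point of SLC7A11 lies below 0 at -0.23.

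The coefficient of variation of CPM, here the SD over the mean with counting error included, was taken for each group. It was highest in the erastin-R group for 8 of the 10 transporters, the exceptions being SLC38A2 and SLC43A1. Erastin-R replicate 1 was at 0.725 times the mean of its replicates for SLC3A2, 0.729 for SLC1A5, 0.775 for SLC1A4, 0.807 for SLC7A5 and 0.824 for SLC7A1. For SLC7A11 the same ratio was 1.05, for SLC38A1 1.07, for SLC38A2 1.02, for SLC43A1 0.910 and for SLC6A9 0.980. The lowest library of the group for the first 5 genes was thus not low for the cystine carrier. Without it, the log2 fold change in erastin-R cells was 0.73 for SLC7A5, 0.77 for SLC1A4, 0.47 for SLC7A1 and 1.30 for SLC1A5. For SLC3A2 the coefficient of variation was 17.5% in erastin-R, 7.88% in vehicle-treated and 0.913% in RSL3-R cells.

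Per kilobase of exon, which allows an approximate comparison of levels of different genes, SLC38A2 and SLC7A5 were the most abundant of the 10 in every group. The length is that of all annotated exons of a gene, which can exceed the transcript made in these cells. In vehicle-treated cells SLC38A2 had 105 CPM per kilobase (SD 2.41, n = 3) and was followed by SLC7A5 (72.8), SLC38A1 (46.0), SLC1A5 (41.3), SLC3A2 (29.2), SLC7A1 (27.8), SLC43A1 (5.49), SLC7A11 (3.17), SLC6A9 (2.10) and SLC1A4 (0.864). In that order SLC3A2 and SLC7A1 were the only neighbours whose libraries overlapped. SLC7A11 thus stood eighth in vehicle-treated cells and was seventh in erastin-R cells with 21.5 CPM per kilobase (SD 1.08) and in RSL3-R cells with 18.2 (SD 0.336), above SLC43A1 and below SLC7A1. In erastin-R cells SLC38A2 and SLC7A5 overlapped, as did SLC7A5 and SLC1A5, and SLC3A2 and SLC38A1. In RSL3-R cells SLC38A2 and SLC7A5 overlapped at 152 and 151 CPM per kilobase, and so did SLC1A5 and SLC38A1 at 101 and 97.8.

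SLC3A2 pairs with 6 light chains, SLC7A5, SLC7A6, SLC7A7, SLC7A8, SLC7A10 and SLC7A11, and the share of SLC7A11 among their RNA per kilobase was computed in each library. The share was 3.81%, 3.87% and 4.05% in the vehicle libraries, 17.7%, 14.9% and 13.7% in the erastin-R libraries, and 10.8%, 10.3% and 10.2% in the RSL3-R libraries. The 3 groups did not overlap, with means of 3.91% ± 0.128, 15.4% ± 2.05 and 10.4% ± 0.354 (SD, n = 3). An exact two-sided permutation test gave p = 0.1 for each of the 3 comparisons, the smallest value that 3 against 3 libraries allow. SLC7A5 made up most of the light chain RNA, with 89.9% ± 0.370 in vehicle-treated, 80.5% ± 2.22 in erastin-R, and 85.9% ± 0.421 in the RSL3-R libraries.

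The summed light chains had 81.0 ± 0.995 CPM per kilobase in vehicle-treated, 140.2 ± 13.1 in erastin-R, and 175 ± 4.48 in the RSL3-R libraries (SD, n = 3). This sum was not tested. The ratio of heavy chain to summed light chains was 0.377, 0.371 and 0.332 in the vehicle libraries, 0.342, 0.403 and 0.395 in the erastin-R libraries, and 0.336, 0.324 and 0.326 in the RSL3-R libraries. The vehicle libraries overlapped with both treated groups, while all RSL3-R libraries lay below all erastin-R libraries. The exact permutation test gave p = 0.5 for erastin-R against vehicle, p = 0.2 for RSL3-R against vehicle and p = 0.1 for RSL3-R against erastin-R (3 libraries per group). The ratio is one of RNA levels and does not count protein chains.

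**Figure D3:**
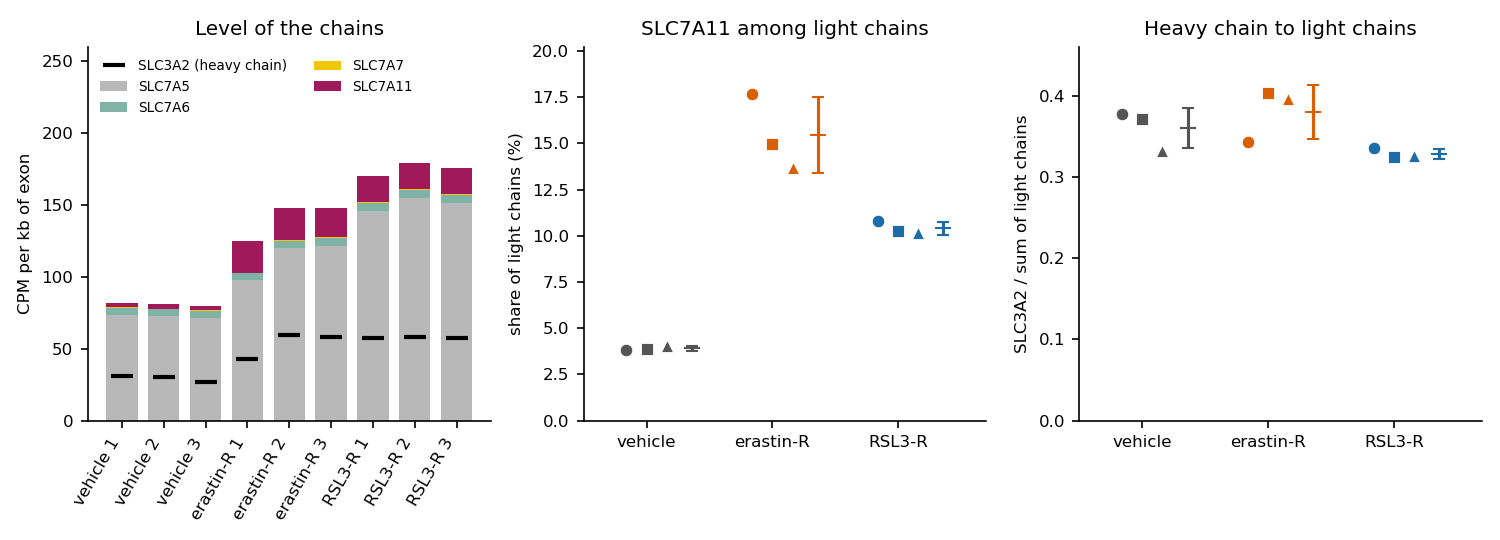
Left, stacked bars give the CPM per kilobase of exon of the light chains in each library and black marks give the heavy chain SLC3A2 (SLC7A8 and SLC7A10 are in the sums but too low to draw). Middle and right, the share of SLC7A11 among the light chains (%) and the ratio of SLC3A2 to the summed light chains, with points for libraries (circle, square and triangle are replicates 1, 2 and 3) and bars for mean ± SD. The share of SLC7A11 is 3.91% in vehicle-treated, 15.4% in erastin-R, and 10.4% in the RSL3-R libraries, while the ratios of vehicle-treated cells overlap with both treated groups.

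A further 41 amino acid transporters were listed, of which 19 passed the filter on low counts and 22 had at most 8 counts in any library. In erastin-R cells 1 was called higher and 1 lower, and by adjusted p alone 5 were higher and 9 lower. Their median log2 fold change was -0.26. Of all genes tested, 6.70% were called higher there and 6.66% lower, and by adjusted p alone 27.1% were higher and 26.8% lower. SLC7A2, a carrier of cationic amino acids related to SLC7A1, rose in erastin-R cells from 65.9 ± 1.16 to 169 ± 5.04 CPM (log2 fold change 1.35, SE 0.06, adjusted p = 9.22e-10). It had 77.5 ± 2.23 CPM in RSL3-R cells, with a log2 fold change of 0.23 (adjusted p = 0.00460). SLC38A4, a relative of SLC38A1 and SLC38A2, fell in both groups, from 11.5 ± 2.20 CPM to 3.30 ± 0.327 CPM in erastin-R cells (log2 fold change -1.79, adjusted p = 1.28e-06) and to 4.98 ± 0.560 CPM in RSL3-R cells (log2 fold change -1.20, adjusted p = 3.81e-05).

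In RSL3-R cells 2 of these 19 were called higher and 2 lower, with a median log2 fold change of 0.08. By adjusted p alone 7 were higher and 2 lower. Of all genes tested, 6.02% were called higher there and 4.08% lower, and by adjusted p alone 23.8% were higher and 24.9% lower. SLC1A7, a glutamate carrier of the family of SLC1A4 and SLC1A5, rose from 2.01 ± 0.369 to 5.16 ± 0.192 CPM (log2 fold change 1.35, adjusted p = 7.67e-05). SLC6A14, a carrier of neutral and cationic amino acids, had a log2 fold change of 1.40 (adjusted p = 0.0128) on 6 to 35 counts per library. SLC16A10, a carrier of aromatic amino acids, had a log2 fold change of -1.17 (adjusted p = 0.0145) on 10 to 55 counts. Between RSL3-R and erastin-R cells 2 of the 19 were called higher, SLC1A7 (log2 fold change 2.27) and the glutamate carrier SLC1A3 (1.12). Another 2 were called lower, SLC16A10 (-1.90) and SLC7A2 (-1.12), and the median of the 19 was 0.58. Of all genes tested, 6.86% were called higher and 3.48% lower in this direct comparison. By adjusted p alone 10 of the 19 were higher and 4 lower, against 22.3% and 26.9% of all genes. The median of the 10 transporters was 0.40 there, so a shift towards RSL3-R cells was not particular to them. CTNS, which exports cystine from lysosomes, was 28.7 ± 2.20 CPM in erastin-R against 42.9 ± 3.50 CPM in vehicle-treated cells (log2 fold change -0.58, adjusted p = 1.18e-04) and 40.7 ± 3.28 CPM in RSL3-R cells (log2 fold change -0.07, adjusted p = 0.532).

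A list headed cystine use held 8 genes of cystine, cysteine and glutathione metabolism. Of these, 7 were tested and CBS had at most 1 count. In erastin-R cells 6.70% of all genes tested were called higher and 6.66% lower. Of the 7 listed genes, 5 were called higher there and 0 lower, with a median log2 fold change of 1.48. These were GCLC (1.49) and GCLM (1.35), the subunits of the rate-limiting enzyme of glutathione synthesis, TXNRD1 (1.48), which reduces thioredoxin and cystine, CHAC1 (2.24), which degrades glutathione, and CTH (2.64), which makes cysteine from cystathionine. In RSL3-R cells 2 were called higher, CHAC1 (3.84) and CTH (2.90), and 0 lower, with a median of 0.31. Of all genes tested, 6.02% were called higher and 4.08% lower in RSL3-R cells. GCLC, at 0.16 (adjusted p = 0.125), was not past the p threshold there, and GCLM fell by 0.40 on the log2 scale (adjusted p = 6.96e-04). Directly compared, GCLC (-1.34), GCLM (-1.75) and TXNRD1 (-1.17) were called lower and CHAC1 (1.60) higher in RSL3-R cells. Of all genes tested, 3.48% were called lower and 6.86% higher in this direct comparison. GPX4, the target of RSL3, had log2 fold changes of 0.51 in erastin-R (adjusted p = 4.74e-06) and 0.38 in RSL3-R cells (adjusted p = 7.37e-05), and GSS had 0.01 (adjusted p = 0.853) and 0.11 (adjusted p = 0.127).

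**Figure D4:**
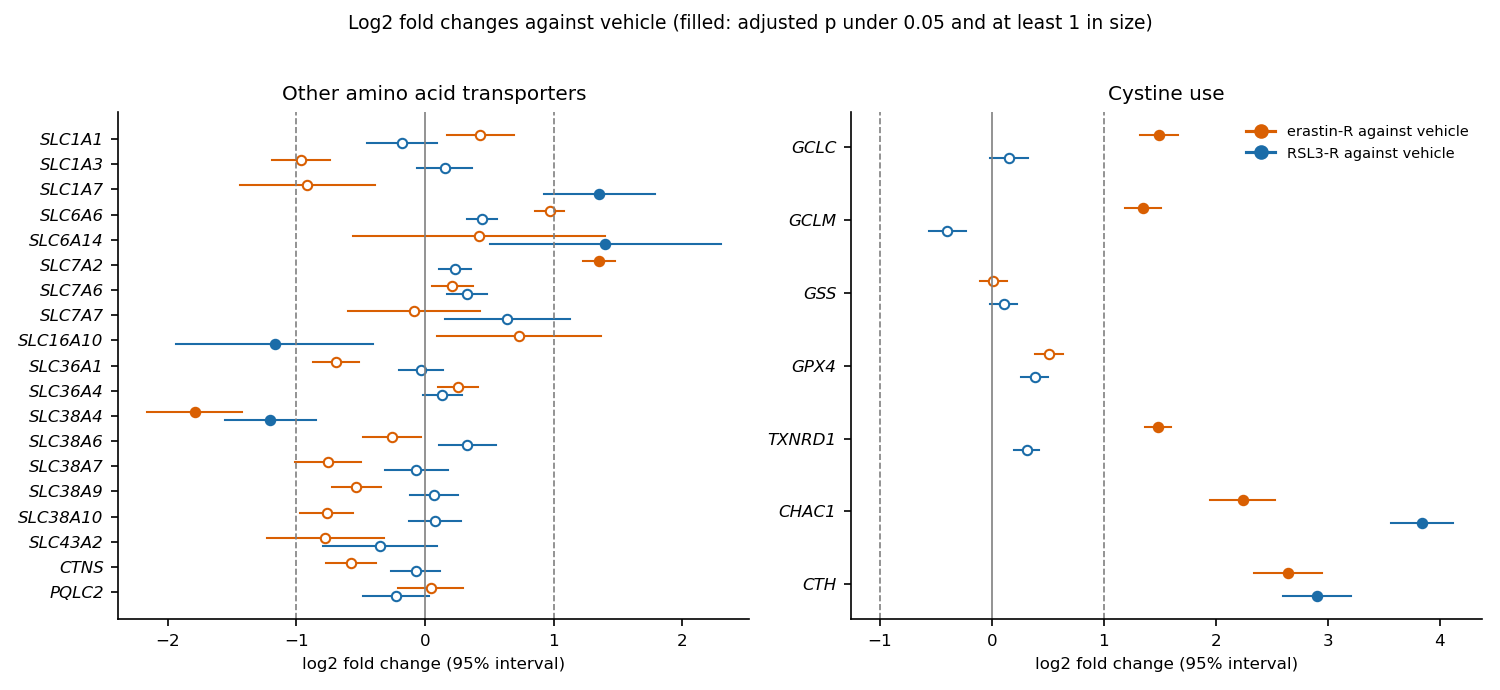
Log2 fold change (points) with 95% confidence interval (lines) against vehicle-treated cells, in erastin-R (orange) and RSL3-R cells (blue). Left, the 19 further amino acid transporters tested, and right, the 7 tested genes of the list headed cystine use. Filled points are called genes and dashed lines mark -1 and 1. GCLC, GCLM and TXNRD1 lie above 1 in erastin-R cells and below 1 in RSL3-R cells, while CHAC1 and CTH lie above 1 in both.

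Among 9 genes known to act on SLC7A11 or its protein, 1 was called higher in erastin-R cells and 2 were in RSL3-R cells. In either group 0 were called lower, and 0 were called between RSL3-R and erastin-R cells. The medians of these 3 comparisons were 0.12, 0.03 and 0.0090 in that order. Of all genes tested, 6.70%, 6.02% and 6.86% were called higher and 6.66%, 4.08% and 3.48% lower in the same order. ATF3, a stress-induced transcription factor that has been described as a repressor of SLC7A11, was 5.13 ± 1.23 CPM in vehicle-treated, 17.5 ± 1.81 CPM in erastin-R and 17.6 ± 1.99 CPM in the RSL3-R group. Against vehicle this gave log2 fold changes of 1.77 (adjusted p = 6.69e-07) and 1.78 (adjusted p = 7.14e-07). BACH1, a repressor at antioxidant response elements, was called in RSL3-R cells at a log2 fold change of 1.14 (adjusted p = 2.20e-08) and had 0.82 in erastin-R cells (adjusted p = 5.04e-07). The RNA of ATF4, an activator of amino acid transporter genes, changed by 0.30 in erastin-R (adjusted p = 3.40e-04) and by 0.68 in RSL3-R cells (adjusted p = 2.19e-07). NFE2L2, the activator at antioxidant response elements, had 0.17 (adjusted p = 0.239) and 0.53 (adjusted p = 0.00247), and its inhibitor KEAP1 had -0.05 (adjusted p = 0.737) and -0.40 (adjusted p = 0.00632). BAP1, a deubiquitinase reported to repress SLC7A11, had 0.12 (adjusted p = 0.153) and -0.41 (adjusted p = 2.73e-04). OTUB1, which stabilises the SLC7A11 protein, had -0.03 (adjusted p = 0.696) and -0.22 (adjusted p = 0.0180). CD44, which binds SLC7A11 at the membrane, had -0.15 (adjusted p = 0.0343) and -0.43 (adjusted p = 3.42e-05), and MUC1 had -0.65 (adjusted p = 0.00254) and 0.03 (adjusted p = 0.893).

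As a description of likeness, the log2 CPM of SLC7A11 was correlated with that of 12960 protein-coding genes over the 9 libraries, which fall into 3 groups. The highest Pearson correlations among genes outside the 10 were those of KLHL24 (0.997), FBXL5 (0.996), ASNS (0.996), JARID2 (0.996) and CRIM1 (0.995). ASNS, the enzyme that makes asparagine, had 1.97 ± 0.209 CPM in vehicle-treated, 27.7 ± 2.40 CPM in erastin-R and 27.6 ± 1.32 CPM in RSL3-R cells, and the other 4 had log2 fold changes of 0.65 to 1.44 against vehicle. Among the 10 transporters the correlation with SLC7A11 was highest for SLC1A5 (0.956) and SLC3A2 (0.932), was 0.863 for SLC7A5 and 0.855 for SLC7A1, and was lowest for SLC38A1 (0.512) and SLC6A9 (0.312).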

How the data were processed

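Poly(A)-selected RNA of 9 libraries was prepared with a kit for Illumina sequencing. Per gene and library, the authors deposited the unnormalized count of reads that mapped uniquely to exons, and FPKM derived from it. The submitters' processing notes name HISAT2 2.0.5 and featureCounts 1.5.0-p3. All 58735 genes matched GENCODE 29 (GRCh38) by identifier and position. No column of other samples was used (0 columns).

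edgeR 4.0.16 (R 4.3.3) filtered the counts with filterByExpr, scaled them by TMM factors and fitted the 3 groups in 1 quasi-likelihood model without covariates, and p values were adjusted over 16188 genes by Benjamini-Hochberg. Called genes had an adjusted p under 0.05 and a log2 fold change of at least 1 in size, the threshold of a supplementary figure legend of the study. The study's methods give a similar minimum fold change, but with a P value from Cufflinks that is not described as adjusted. The deposited FPKM served only alternatives: a filter (mean of at least 1) and the level in light chain shares and ratios. CPM per kilobase divides CPM by the exon length in the files. Log2 CPM for correlations used a prior count of 3. Shares and ratios of light chains were compared by exact permutation of libraries. Alternatives were DESeq2 1.42.0, its size factors in edgeR, quantile normalization with limma 3.58.1, no filter, the FPKM filter, a model of the 2 groups compared, the replicate number as a block, and each library left out in turn. Other scripts ran in Python 3.11.15 with scipy 1.17.1 and matplotlib 3.10.9. Only the fits with edgeR, DESeq2 and limma were tested on simulated data, for erastin-R against vehicle. Exon overlaps and shared words of 50 bases were looked up in GENCODE 29 for the 10 transporters only.

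The transporters, the gene lists and the tests were chosen with earlier results of these data known. The genes named are the 10 transporters, called genes of the further transporters (at most 6 per comparison), the tested genes of the lists of regulators and of cystine use, the 5 genes most correlated with SLC7A11, and overlapping genes. CTNS, CBS, SLC7A6, SLC7A7, SLC7A8, SLC7A10, SMG1P3, SLC7A5P2 and the marker genes were named outside that rule. The same replicate number did not pair libraries: deviations from group means correlated by -0.0904 to 0.0518 over 9 pairs. The mean squared difference between replicates of a group was at least 2.45 times that from counting error.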

Additional observations from a re-analysis of the deposited data

How the results depend on the processing

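Over 16 alternative fits and 3 comparisons, 469 log2 fold changes of the 10 transporters kept their direction and side of the threshold and 9 moved past it, SLC3A2 in 5 and SLC38A1 in 4 of them. Another 2 values reversed, neither past the p threshold: without erastin-R replicate 1 the log2 difference between RSL3-R and erastin-R cells was -0.038 for SLC3A2 and -0.017 for SLC1A5, the lowest over the single libraries left out, with highest values of 0.181 and 0.209. Without a minimum fold change the number of transporters called was 7 in erastin-R cells, 10 in RSL3-R cells and 8 between RSL3-R and erastin-R cells. Leaving out 1 library gave 2 to 3, 6 to 7 and 2 to 3. With the replicate block the numbers were 2, 6 and 2 as in the fit without it. With counts not divided by gene length, the difference in the SLC7A11 share of light chains was 19.1 percentage points for erastin-R minus vehicle, 11.4 for RSL3-R minus vehicle and -7.71 for RSL3-R minus erastin-R, against 11.5, 6.51 and -5.01. The difference of the heavy to light chain ratio for erastin-R minus vehicle then reversed from 0.020 to -0.014, since longer genes weigh more in undivided counts. Under other scalings the median over all genes of the shift in log2 fold change was at most 0.027 in size. Genes of under about 10 counts, among them the 22 transporters not tested, were too shallow to compare.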
